A study of Mus musculus with 768 samples.

Results

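The genes described here are 8 members of the complement system, C3, C4b, C1ra, Serping1, Clu, Cd55, Cd59a and Cfb, out of 25700 genes counted in single Schwann cells (SCs) of the adult mouse sciatic nerve. They were listed by symbol after the Ensembl identifiers of the count table were matched to mouse gene names, and all 8 were found. The genes were chosen by their levels in myelinating and non-myelinating cells and in Aldh1a1 subsets of the latter, as seen in an earlier look at the same counts, so those levels are a description below and carry no test. The cells came from P0Cre: ReYFP: βAct-DsRed mice at postnatal day 60 (P60), in which Cre under the promoter of myelin protein zero switches on a yellow fluorescent protein (eYFP) in the SC lineage and all cells carry DsRed. Nerves were digested with trypsin, collagenase and hyaluronidase, and single eYFP-positive cells were sorted into 2 plates of 384 wells for Smart-Seq2, which reads full-length cDNA and has no molecular identifiers. Each plate was 1 biological replicate, with 2 male and 2 female mice pooled, so n = 2 throughout, and there was no treatment.

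Complement is a cascade of plasma and membrane proteins that marks targets for removal. The classical route starts with C1, in which the serine protease C1r activates C1s. C1s cuts C4 and C2, and their products cut C3, the protein at which all routes meet. Factor B (Cfb) takes the place of C2 in the alternative route, and the late components form a pore in the membrane. Regulators hold the cascade in check: the C1 inhibitor Serping1 blocks C1r and C1s, Cd55 speeds the decay of the enzymes that cut C3, Cd59a stops the pore, and clusterin (Clu) binds the late components in solution. The liver makes most of the plasma proteins, and many tissues also make some of them locally.

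A pair of SC classes was compared. Myelinating SCs (mSC) each wrap 1 axon, and non-myelinating or Remak SCs (nm(R)SC) hold several thin axons. Clusters were rebuilt from the counts with all complement genes and Aldh1a1 left out, and were named from marker lists, hence "mSC-like" and "nm(R)SC-like". Of 674 cells with 1500 or more detected genes, 224 were mSC-like (150 in plate 1 and 74 in plate 2), 422 were nm(R)SC-like (174 and 248), and 28 formed a cluster led by cell-cycle genes that stayed unnamed. The nm(R)SC-like cells were divided by Aldh1a1, an enzyme of retinoic acid synthesis, at 100 counts per 1000000 reads (CPM). The Aldh1a1-high subset had 101 and 124 cells and the Aldh1a1-low subset 73 and 124, and 11 and 6 cells lay between 50 and 200 CPM. The summed reads of plates 1 and 2 came to 30981152 and 54777231 for mSC-like and to 38515170 and 153412002 for nm(R)SC-like cells.

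The cell labels were checked first. Sox10, the SC lineage factor, was at 237 to 565 CPM in the 4 class sums. Of 8 macrophage markers, 6 or 7 were under 1 CPM in every sum. Ptprc and Adgre1, which define leukocytes and macrophages, were at 0.00652 CPM or less in the class sums, and only Csf1r, whose exons overlap Hmgxb3 on the other strand, reached 10 CPM. The fibroblast list summed to 414 and 348 CPM in mSC-like cells of plates 1 and 2 and was higher in nm(R)SC-like cells, at 2176 and 817 CPM. Nearly all of this was RNA of the collagens Col1a1 and Col3a1, and its part in the results below was not tested. In nm(R)SC-like cells of each plate 3 of the 7 fibroblast genes were at 10 CPM or more and 3 were under 1 CPM. Pdgfra, Pi16 and Dpt were at 0.280 CPM or less in the class sums. Dcn and Lum leaned to nm(R)SC-like cells, with fitted log2 ratios of -2.24 ± 0.97 SE and -2.52 ± 5.61 SE. Neither passed the edgeR test (edgeR adjusted p = 0.38 and 0.96). In 4 kept wells, 2 per plate, the plasma protein gene Fgb of the liver stood at 932 to 3766 CPM and Vtn at 4557 to 10501 CPM. All 4 counted as nm(R)SC-like and had 14482 to 30030 reads. They were picked out after the data were seen, and C3, Cfb and Vtn ratios that they move are also given without them.

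All 8 genes are protein-coding and are given here by their GRCm38 annotation. On the minus strand lie C3 (chr17:57203970-57228136), C4b (chr17:34728380-34743882), Serping1 (chr2:84765387-84775444), Cd55 (chr1:130439027-130462744) and Cfb (chr17:34856374-34862518). On the plus strand lie C1ra (chr6:124512405-124523443), Clu (chr14:65968483-65981547) and Cd59a (chr2:104095801-104115354). Sequence upstream of the start was held in the RefSeq promoter table (GRCm38.p6) for 4 of the 8 genes: C3, C1ra, Cd55 and Cd59a. The 250 bases before the start are printed for the central component with the largest ratio between the Aldh1a1 subsets (C3), for the member that ran the other way (Cd55) and for the most widely found one (Cd59a), 5′ to 3′ on the strand of the gene. The C3 stretch lies at chr17:57228137-57228386 on the minus strand, the Cd55 stretch at chr1:130462745-130462994 on the minus strand and the Cd59a stretch at chr2:104095551-104095800 on the plus strand. Capitals mark letters that match the C/EBP motif TTNNGNAA or the interferon-stimulated response element on either strand.
C3: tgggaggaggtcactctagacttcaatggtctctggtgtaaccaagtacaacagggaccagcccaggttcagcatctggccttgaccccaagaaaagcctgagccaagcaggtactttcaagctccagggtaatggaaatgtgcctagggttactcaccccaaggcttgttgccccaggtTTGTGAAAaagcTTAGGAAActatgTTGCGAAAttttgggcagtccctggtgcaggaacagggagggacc
Cd55: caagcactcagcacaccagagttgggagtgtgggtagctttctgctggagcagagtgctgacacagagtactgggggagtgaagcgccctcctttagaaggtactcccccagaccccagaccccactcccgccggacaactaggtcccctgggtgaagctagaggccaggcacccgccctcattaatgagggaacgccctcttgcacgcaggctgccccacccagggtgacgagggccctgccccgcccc
Cd59a: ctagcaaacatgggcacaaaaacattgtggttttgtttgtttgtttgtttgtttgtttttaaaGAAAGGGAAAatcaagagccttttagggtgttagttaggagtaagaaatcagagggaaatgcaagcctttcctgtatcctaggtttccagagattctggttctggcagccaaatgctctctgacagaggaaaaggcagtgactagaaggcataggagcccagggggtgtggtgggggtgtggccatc

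The C3 stretch held the C/EBP letters 3 times, as TTGTGAAA, TTAGGAAA and TTGCGAAA, starting 70, 58 and 45 bases before the transcription start, and TTGCGAAA matches on both strands. None of these overlapped another. The C1ra stretch (chr6:124512371-124512620, plus strand) had TTCCCCAA and TTTCAAAA, at 72 and 29 bases before the RefSeq start. That start lies downstream of the C1ra gene start given above (124512405), so most of the stretch falls inside the annotated gene. The C/EBP letters were not found in Cd55 or Cd59a. The motif is common, since 36.8% of 32851 promoter stretches of this length held it. The Cd59a stretch had 1 match to the interferon element, GAAAGGGAAA at 187 bases, which 2.98% of all stretches held. The TATA box TATAAA (12.4% of stretches), the NF-kappaB motif (1.41%), the GAS letters TTCNNNGAA (7.02%) and the Sox letters ACAAAG (16.5%) were not in the 4 stretches. The letters are a description of the windows and not of binding.

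In both plates 6 of the 8 complement genes, C3, C4b, C1ra, Serping1, Clu and Cd59a, were lower in mSC-like than in nm(R)SC-like cells, and the 2 plates of one class did not overlap those of the other. Cd55 ran the other way in both plates. Cfb had too few reads to place. Of 13245 genes tested, 27.1% were likewise lower in mSC-like cells with no overlap of the plates, and 15.2% were higher with none. In addition, 3.26% passed the edgeR test between the classes, 1.52% as higher in nm(R)SC-like and 1.74% as higher in mSC-like cells, and since these genes were chosen with this contrast known nothing is read from the difference. Ratios below are log2 of mSC-like over nm(R)SC-like CPM with 1 CPM added to both, as mean ± SD over the 2 plates.

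C3 (ENSMUSG00000024164), the central component, had 301 CPM (plate 1) and 386 CPM (plate 2) among nm(R)SC-like cells. In mSC-like cells it had 1.74 and 0.0730 CPM, the latter from 4 reads in 74 cells. The C3 ratio was -7.64 ± 1.21 (n = 2 plates, as for each ratio below). When every cell was given the same weight it was -2.27 in plate 1 and -8.22 in plate 2, with a mean of -5.25. C4b (ENSMUSG00000073418), a component of the classical route, stood at 566 and 1274 CPM in nm(R)SC-like and at 5.75 and 1.10 CPM in mSC-like cells, a ratio of -7.82 ± 2.02. Its near copy C4a was not found by symbol among the genes counted, and how reads that fit both were handled is not given in the sources used here. C1ra (ENSMUSG00000055172), 1 of 2 mouse C1r genes, had 117 and 220 CPM among nm(R)SC-like cells. In mSC-like cells it had 19 reads (0.613 CPM) and 2 reads (0.0365 CPM), a ratio of -6.97 ± 1.09. With those 2 reads the plate 2 fold was 6025, with a 95% counting interval of 1668 to 49753. With equal weight per cell the ratio was -3.96 and -8.82 for C4b, and -4.97 and -7.74 for C1ra, in plates 1 and 2.

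Among the regulators the picture was mixed. Serping1 (ENSMUSG00000023224) had 813 and 2170 CPM among nm(R)SC-like cells, while mSC-like cells had 50.3 and 48.1 CPM, and its ratio was -4.73 ± 1.05. Clu (ENSMUSG00000022037) had 299 and 764 CPM in the nm(R)SC-like and 1.52 and 0.183 CPM in the mSC-like class, a ratio of -8.12 ± 1.73. Cd59a (ENSMUSG00000032679) was present in both classes. Its level was 1458 and 2311 CPM in nm(R)SC-like and 614 and 574 CPM in mSC-like cells, and its ratio was the nearest to 0 of the 6, at -1.63 ± 0.54. Equal weight per cell gave -3.00 and -5.58 for Serping1, -4.71 and -8.82 for Clu, and -0.97 and -1.97 for Cd59a.

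Cd55 (ENSMUSG00000026399) was the one gene higher in mSC-like cells in both plates, at 146 and 58.6 CPM against 0.909 and 2.85 CPM among nm(R)SC-like cells, a ratio of 5.11 ± 1.64. In plate 2, 90.2% of the 437 nm(R)SC-like reads came from 1 cell. The mSC-like reads in turn came mostly from 1 of the 2 mSC-like clusters. In the cluster led by Mfap5 and Ogn, Cd55 had 211 and 168 CPM, and in the cluster led by Emid1 and Pllp it had 17.1 and 0.698 CPM. Serping1 sums had the opposite order in the same clusters, with 19.8 and 3.58 CPM in the Mfap5 cluster and 110 and 71.7 CPM in the Emid1 cluster. In plate 2, 1 cell of the Emid1 cluster held 1599 of its 2568 Serping1 reads, and without that cell the level was 29.7 CPM. The Mfap5 cluster held 92 cells of plate 1 and 23 of plate 2, and the Emid1 cluster 58 and 51.

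Cfb (ENSMUSG00000090231) had 674 reads in the whole table, and 573 of them (85.0%) were in 1 nm(R)SC-like cell of plate 2. Its exons overlap Gm20547, a read-through transcript on the same strand that also covers C2. In the cell with most Cfb reads Gm20547 had 567 reads and C2 had 0. In the cell with most C2 reads (3531) Gm20547 had 2724 and Cfb 0. In no cell did Gm20547 have more reads than Cfb and C2 together. By class, Cfb stood at 1.81 and 0 CPM in mSC-like and 0.831 and 3.75 CPM among nm(R)SC-like cells, and the 2 plates pointed in opposite directions.

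**Figure D1:**
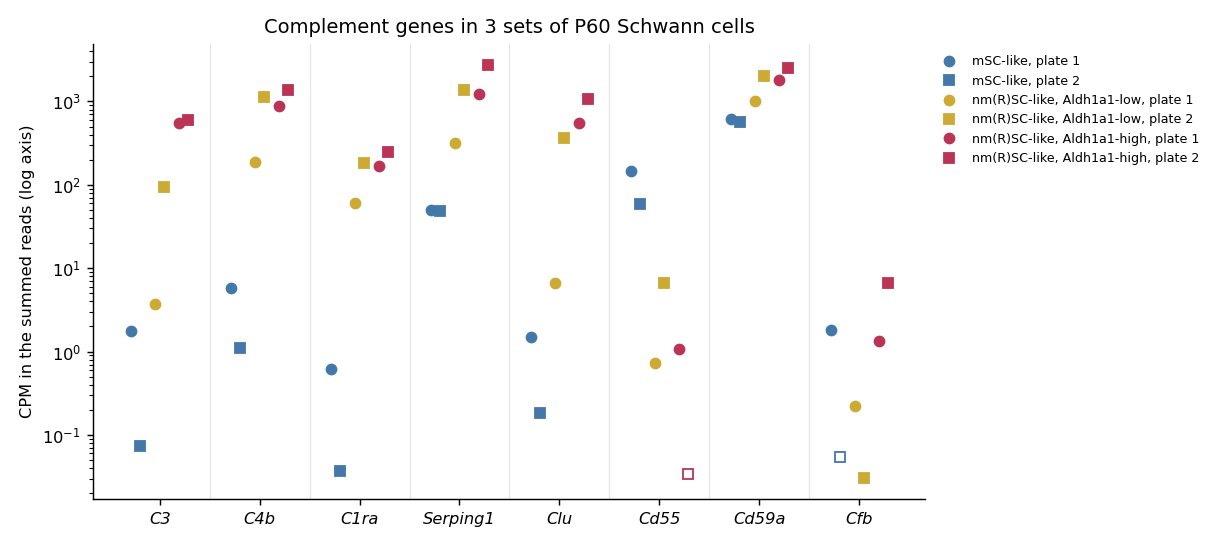
CPM in the reads summed per plate for mSC-like, Aldh1a1-low nm(R)SC-like and Aldh1a1-high nm(R)SC-like cells, on a log axis, with circles for plate 1 and squares for plate 2. Open squares are sums with 0 reads, drawn at the level of 3 reads. C3 and Clu are lowest in mSC-like and highest in Aldh1a1-high cells of each plate, Cd55 is at 146 and 58.6 CPM in mSC-like cells, and Cd59a is at 574 CPM or more in every sum.

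To compare the genes with each other, CPM was divided by exon length in kb. In nm(R)SC-like cells Cd59a led in both plates, at 805 and 1276 CPM per kb, followed by Serping1 at 350 and 933. C4b (99.4 and 224), Clu (87.0 and 222), C3 (58.4 and 75.1) and C1ra (39.4 and 73.8 CPM per kb) came next in this order in both plates. The plate ranges of Cd59a and Serping1, of C4b and Clu, and of C3 and C1ra overlapped, while those of Serping1 and C4b, and of Clu and C3, did not. Cfb (0.294 and 1.33 CPM per kb) and Cd55 (0.187 and 0.587 CPM per kb) were last. In mSC-like cells Cd59a was again first at 339 and 317 CPM per kb, with Cd55 (30.1 and 12.1) and Serping1 (21.6 and 20.7) behind it in an order that the plates did not share. The inhibitors of the pore and of C1 had the highest levels per length in nm(R)SC-like cells, above the components C4b, C3 and C1ra.

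A class sum can rest on few cells, so each cell with 100000 or more reads was thinned to 100000, and a gene was called found at 5 or more of these reads. This left 99 and 73 mSC-like and 112 and 239 nm(R)SC-like cells. Intervals are exact 95% binomial (Clopper-Pearson) intervals and cover counting error only. Cd59a was found in 92.9% of plate 1 nm(R)SC-like cells (interval 86.4 to 96.9%) and 94.6% of plate 2 cells (90.9 to 97.1%). In mSC-like cells it was found in 78.8% (69.4 to 86.4%) and 60.3% (48.1 to 71.5%).

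Serping1 was found in 69.6% and 74.9% of nm(R)SC-like cells, against 20.2% and 9.59% of mSC-like cells. C4b was found in 50.9% (41.3 to 60.5%) and 63.2% (56.7 to 69.3%) of nm(R)SC-like cells and in 1 mSC-like cell of each plate. C1ra was found in 33.9% and 22.6% and Clu in 24.1% and 32.2% of nm(R)SC-like cells. Neither was found in an mSC-like cell at this limit of 5 reads (0 of 99 and 0 of 73). Taking 3 cells of the total as the limit that a count of 0 allows, these shares could be up to 3.03% and 4.11%, and the upper ends of the exact intervals were 3.66% and 4.93%. At 50 CPM or more in all kept cells without thinning, the shares of these 4 genes in nm(R)SC-like cells were 23.4 to 74.7%.

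C3 was found in a minority of cells. It was seen in 13 of 112 nm(R)SC-like cells in plate 1 (11.6%, 6.33 to 19.03%) and in 38 of 239 in plate 2 (15.9%, 11.5 to 21.2%), or 16.7% and 16.5% at 50 CPM without thinning. Of the mSC-like cells, 1 of 99 and 0 of 73 had it, or 3.33% and 0% at 50 CPM without thinning. The nm(R)SC-like cells that had it had much of it, with a median of 420 and 1340 CPM in the cells where it was found and a highest value of 5980 and 7900 CPM after thinning. The 12 and 24 nm(R)SC-like cells with most C3, 1 in 10 of each plate, held 98.2% and 89.9% of the thinned C3 reads. For Cd59a the same number of top cells held 31.7% and 26.4%, for Serping1 40.0% and 34.9%, and for C4b 54.5% and 41.9%. One cell of plate 1 carried 5852 of the 11576 C3 reads of its class. Without the cell with most reads in each sum, the mean C3 ratio between the classes was -7.11.

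Cd55 was found in 33 of 99 and 10 of 73 (13.7%) of mSC-like cells. In the Mfap5 cluster the share was 48.4% (35.8 to 61.3%) and 39.1% (19.7 to 61.5%), and in the Emid1 cluster it was 5.71% (0.69968 to 19.2%) and 2.00% (0.0506 to 10.6%). In nm(R)SC-like cells Cd55 was found in 0 of 112 and 2 of 239 cells. Serping1 was found in 7.81% (2.59 to 17.3%) and 4.35% (0.11002 to 21.9%) of the Mfap5 cluster and in 42.9% (26.3 to 60.6%) of plate 1 and 6 of 50 cells (4.53 to 24.3%) of plate 2 in the Emid1 cluster, so the intervals overlapped in plate 2. The paralog Cd55b, with a maximum of 2.39 CPM in the class sums, was also highest in mSC-like cells of plate 1.

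**Figure D2:**
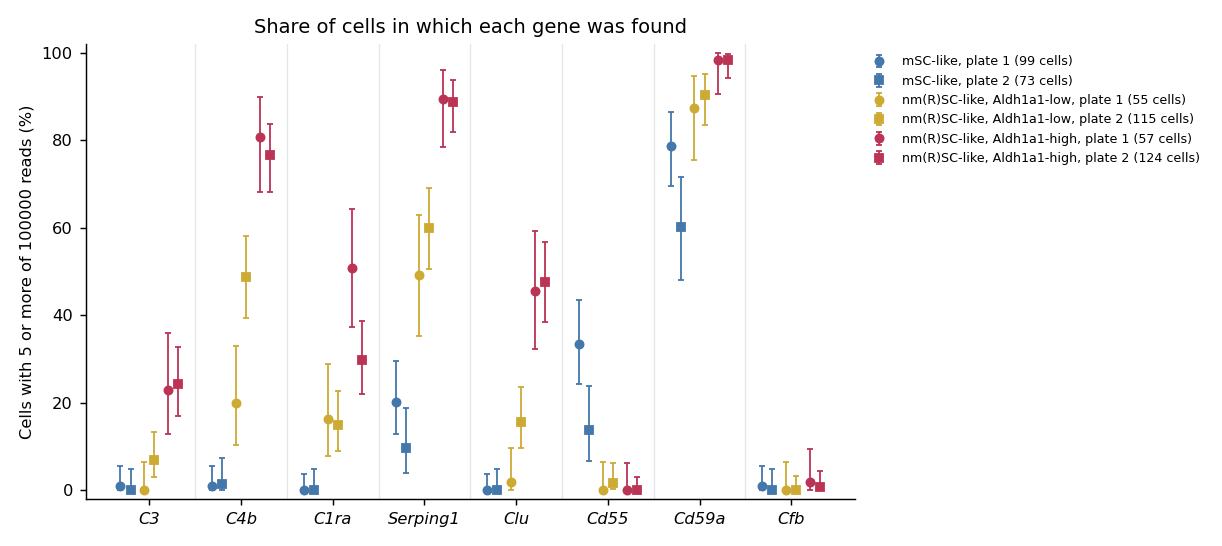
Percent of cells, each thinned to 100000 reads, in which a gene had 5 or more reads, by class, Aldh1a1 subset and plate, with exact 95% binomial intervals as bars. C3 was found in 22.8 and 24.2% of Aldh1a1-high cells and in 0 and 6.96% of Aldh1a1-low cells, while Cd59a was found in most cells of each set.

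Within nm(R)SC-like cells, 7 of the 8 complement genes were higher in the Aldh1a1-high than in the Aldh1a1-low subset in both plates, and Cd55 was the exception. Of 12624 genes tested, 23.4% were higher in Aldh1a1-high cells in both plates, and 13.2% were higher with no overlap of the plates. Cfb counts among the 7 with few reads, given below. The background of the edgeR test between the subsets was 0.143% of these genes, 0.0792% as higher in Aldh1a1-high and 0.0634% as higher in Aldh1a1-low cells, and again nothing is read from it because this contrast was known when the genes were chosen. Ratios are log2 of Aldh1a1-high over Aldh1a1-low. Median reads per cell were 122180 and 203655 (high and low) in plate 1 and 489570.5 and 337360 in plate 2, so the deeper subset was not the same one in both plates.

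C3 had 556 and 606 CPM in Aldh1a1-high cells and 3.76 and 94.6 CPM in Aldh1a1-low cells of plates 1 and 2. The subsets did not overlap, and the ratio was 4.77 ± 2.97. In plate 1, 31 of the 67 Aldh1a1-low C3 reads lay in 1 well with liver genes. Without the 4 such wells the plate 1 level was 2.02 CPM and the mean ratio 5.10. In plate 2, 1 cell held 65.4% of the Aldh1a1-low C3 reads. By cells, C3 was found in 22.8% (12.7 to 35.8%) and 24.2% (16.957 to 32.7%) of Aldh1a1-high cells. In the Aldh1a1-low subset it was found in 0 of 55 cells, which allows up to 5.45% by the limit of 3 cells (exact interval up to 6.49%), and in 8 of 115 (6.96%, 3.05 to 13.2%). When every cell was given the same weight, the mean C3 ratio was 2.97 with the 4 wells and 4.40 without them.

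Clu followed with 551 and 1064 CPM in Aldh1a1-high and 6.68 and 368 CPM in Aldh1a1-low cells, a ratio of 3.85 ± 3.28. In plate 1 a single cell had 53.2% of the Aldh1a1-high Clu reads, and the mean ratio without the cell with most reads in each sum was 3.84. Clu was found in 45.6% and 47.6% of Aldh1a1-high and in 1.82% and 15.7% of Aldh1a1-low cells. Both C3 and Clu thus had no overlap between the subsets, and in both the plates gave very different sizes.

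The other 4 genes differed less. C4b had 890 and 1386 CPM in Aldh1a1-high against 190 and 1126 CPM in Aldh1a1-low cells (ratio 1.26 ± 1.36), and Serping1 had 1237 and 2761 against 320 and 1389 CPM (1.47 ± 0.68). C1ra was at 166 and 250 against 60.8 and 181 CPM (0.95 ± 0.69), and Cd59a at 1832 and 2521 against 1024 and 2033 CPM (0.57 ± 0.37). For all 4 the Aldh1a1-low level of plate 2 lay above the Aldh1a1-high level of plate 1, so the order held within a plate but not across plates. Their shares of cells were also higher in the Aldh1a1-high subset in each plate. C4b was found in 80.7% and 76.6% against 11 of 55 cells and 48.7%, Serping1 in 89.5% and 88.7% against 49.1% and 60.0%, and C1ra in 50.9% and 29.8% against 16.4% and 14.8%.

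Cd55 had 1.06 and 0 CPM in Aldh1a1-high and 0.730 and 6.62 CPM in Aldh1a1-low cells, and its direction differed between the plates. Cfb had 1.35 and 6.57 CPM against 0.225 and 0.0303 CPM, from 28 and 574 reads against 4 and 2 reads. Of the 574 reads 573 were in 1 cell, and without the cell with most reads in each sum the mean ratio dropped from 1.91 to 0.11. All 6 Aldh1a1-low reads lay in wells with liver genes, and without these wells the Aldh1a1-low subset had 0 reads in both plates and the mean ratio was 2.03.

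The subset difference ran alongside the clusters. The nm(R)SC-like cluster led by Apoe and Scn7a held 97 cells of plate 1 and 151 of plate 2, of which 76 and 105 were Aldh1a1-high. In it C3 had 502.03 and 500.4 CPM, Clu 501.68 and 1048 CPM and C4b 925 and 1489 CPM. In the cluster led by Ednrb, with 61 and 93 cells, C3 had 13.7 and 126 CPM, Clu 2.54 and 112 CPM and C4b 17.7 and 768 CPM. Of the 6 genes Cd59a had the smallest ratio between these clusters, with 1984 and 2564 CPM in the Apoe and 647 and 1727 CPM in the Ednrb cluster. A small cluster led by protocadherin alpha genes had 255 and 1023 CPM of C4b but 15.2 and 0 CPM of C3, in 16 and 4 cells.

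**Figure D3:**
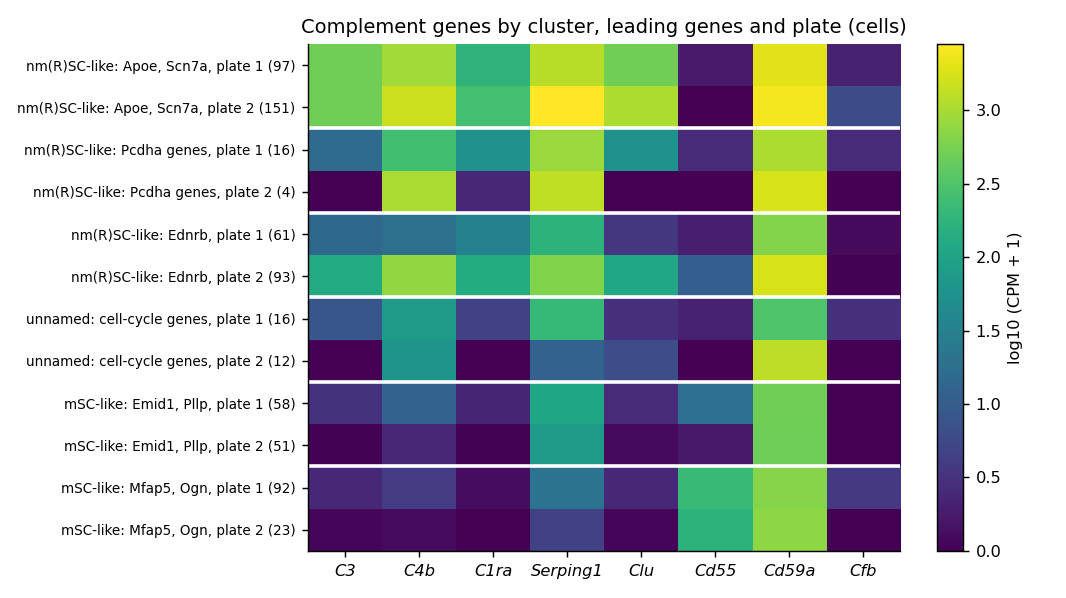
Colour gives log10 of CPM + 1 for the 8 genes in each cluster and plate, with the class, the leading genes and the number of cells in the row names. C3 and Clu are brightest in the Apoe and Scn7a rows (502.03 and 500.4 CPM for C3), and Cd55 in the Mfap5 and Ogn rows (211 and 168 CPM).

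Single nm(R)SC-like cells often held several of the genes. After thinning, mSC-like cells had a mean of 1.35 and 0.849 of the 8 genes per cell and nm(R)SC-like cells 2.84 and 3.05, with SDs over cells of 0.787, 0.701, 1.65 and 1.42. In Aldh1a1-high cells the mean was 3.89 and 3.66, and in Aldh1a1-low cells 1.75 and 2.38. At least 4 of the genes were found in 36 of 57 and 74 of 124 Aldh1a1-high cells (63.2% and 59.7%), in 3 of 55 and 24 of 115 Aldh1a1-low cells (5.45% and 20.9%), and in no mSC-like cell. No cell held more than 6.

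**Figure D4:**
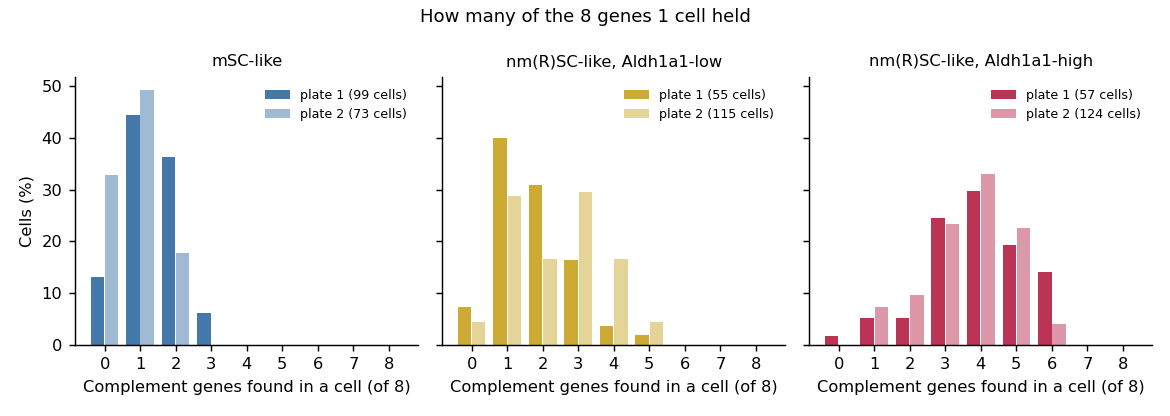
Percent of thinned cells, per plate, by how many of the 8 genes were found in the cell, for mSC-like, Aldh1a1-low and Aldh1a1-high nm(R)SC-like cells. The median is 1 gene in mSC-like cells of both plates, 2 and 3 in Aldh1a1-low cells and 4 in Aldh1a1-high cells of both plates.

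C3 was rarely alone. Of the C3 cells, 12 of 13 in plate 1 and 34 of 38 in plate 2 also had C4b, and all of them had Cd59a. Of all nm(R)SC-like cells, 50.9% and 63.2% had C4b, and of the Aldh1a1-high cells 80.7% and 76.6% had it. Conversely only 21.1% and 22.5% of the C4b cells had C3. Clu was found in 92.3% and 57.9% of the C3 cells, against 24.1% and 32.2% of all. Serping1 was found in 94.7% and 89.4% of C4b cells and in 96.3% and 97.4% of Clu cells. Of all nm(R)SC-like cells, 69.6% and 74.9% had Serping1, and 92.9% and 94.6% had Cd59a. Among Aldh1a1-high cells C4b and Serping1 were found together in 44 and 88 cells, where the product of their shares gives 41.2 and 84.3. Among Aldh1a1-low cells they were found together in 10 and 47 cells, where the product gives 5.4 and 33.6. C3 and C4b were found together in 12 and 27 Aldh1a1-high cells, where the product gives 10.491 and 22.984. In Aldh1a1-low cells of plate 2 C3 and C4b were together in 7 cells, where the product gives 3.8957. C3 and Clu were found together in 12 and 20 Aldh1a1-high cells, where the product gives 5.9298 and 14.274. Of the C3 cells, 13 of 13 in plate 1 and 30 of 38 in plate 2 were Aldh1a1-high.

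Across thinned nm(R)SC-like cells the Spearman rho of C4b with Serping1 was 0.61 in plate 1 (112 cells) and 0.39 in plate 2 (239 cells), and that of C3 with Clu was 0.49 and 0.27. These values pool the Aldh1a1 subsets. For C4b with Serping1 rho was 0.33 and 0.26 within Aldh1a1-high and 0.39 and 0.43 within Aldh1a1-low cells. For C3 with Clu it was 0.46 and 0.25 within Aldh1a1-high and 0.50 and 0.034 within Aldh1a1-low cells. The points share library, plate and cell quality, and are given as a description. The ranking that follows also pools the subsets. Among 7459 genes at 10 CPM or more, ranked by the lower rho of the 2 plates, the 5 genes outside the list most like C3 were Fcgr2b (0.43 and 0.40), an inhibitory receptor for IgG, Serpina3n (0.38 and 0.34), an acute phase protease inhibitor, Tmem176a (0.27 and 0.36), Aldh1a1 (0.31 and 0.26) and the class I histocompatibility gene H2-K1 (0.25 and 0.27). For C4b they were Tmem176a (0.65 and 0.52), the lipid carrier Apoe (0.70 and 0.45), Tmem176b (0.43 and 0.40), Serpina3n (0.41 and 0.38) and the prion protein gene Prnp (0.64 and 0.36). For Serping1 they were Apoe (0.71 and 0.49), Tmem176a (0.71 and 0.49), the actin-severing protein gene Gsn (0.62 and 0.41), Aldh1a1 (0.56 and 0.37) and Sparcl1 (0.65 and 0.34). Over all genes the median rho with C3 was -0.00085 and 0.014. The complement genes were chosen with their levels in the Aldh1a1 subsets known, so nothing is read from the place of Aldh1a1 among these genes.

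The rest of the complement system was read from a list of 49 other genes, of which 48 were in the table. Most were near 0, with 30 under 1 CPM in every class sum and 8 at 10 CPM or more in at least one class sum. After the filter on low counts 17 were tested between the classes with edgeR. None passed as higher in mSC-like cells and 2 as lower, where 1.52% of all genes did, and 6 had an unadjusted p under 0.05. DESeq2 called 7, all lower in mSC-like cells, where it called 1003 of all 13245 genes as lower. The median ratio of the 17 was -0.87 and that of all genes tested -0.23, on the scale with 1 CPM added. The filter can keep a gene through the class where it is high, which partly fixes its direction. C1s1, C1rb, C1rl, C2 and Vtn, at 0.549 CPM or less in mSC-like cells, were kept in this way. Without the filter 31 were tested and 3 called, all lower in mSC-like cells, where 262 of all 16781 genes were. Nothing is read from these counts or the median.

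C1s1, the C1s protease that works beside C1r, was 1 of the 2. It had 42.3 and 172 CPM among nm(R)SC-like cells against 0.549 and 0.0183 CPM in mSC-like cells (fitted log2 ratio -8.70 ± 1.66 SE, edgeR adjusted p = 0.033). The other was Csmd1, a membrane protein that inhibits complement, with 186 and 128 CPM against 1.48 and 1.88 CPM (-6.34 ± 0.63 SE, edgeR adjusted p = 0.0028). C1rb, the paralog of C1ra, had 13.2 and 44.9 CPM among nm(R)SC-like cells and 0.0646 and 0 CPM in mSC-like cells, and missed the limit (edgeR adjusted p = 0.068). C2, with 8.85 and 27.4 against 0.387 and 0.0183 CPM, also missed it (edgeR adjusted p = 0.27). Its reads came from few cells, 1 of which had 77.4%, and its exons overlap Gm20547 and, on the other strand, Zbtb12.

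Among the regulators, Cd59b, the paralog of Cd59a, had 110 and 112 CPM in nm(R)SC-like and 41.8 and 24.2 CPM in mSC-like cells (edgeR adjusted p = 0.20). Cr1l, a regulator that acts on C3 and C4 products, had 157 and 136 against 161 and 46.3 CPM, and its plates differed in direction. C1rl had 9.22 and 11.6 against 0.0968 and 0 CPM, and Cd46 10.3 and 6.34 against 5.97 and 3.69 CPM. Vtn had 4.88 and 3.23 against 0.0646 and 0 CPM, but without the 4 wells with liver genes its mean ratio went from -2.27 to -0.03. Itgb2, a receptor subunit of leukocytes, had 7.78 and 0 CPM in mSC-like cells. The C3a receptor C3ar1 and the regulator Cfi had no read in any class or subset, and neither had factor D (Cfd). C1qa, a chain of the C1 sensor, was at 1.26 CPM in mSC-like cells of plate 1, from 1 cell.

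**Figure D5:**
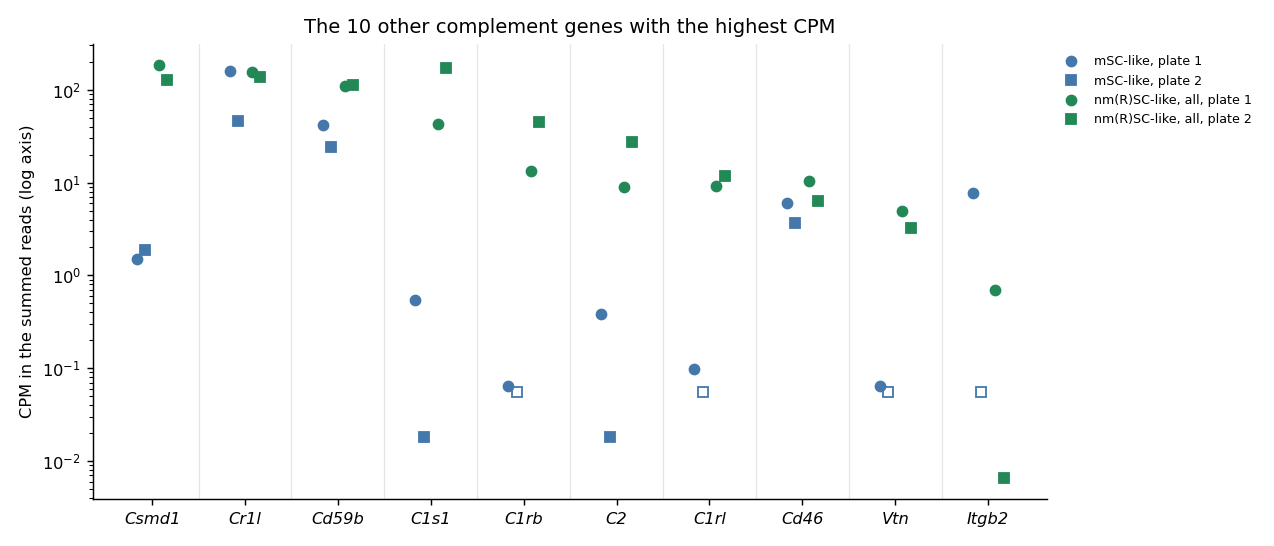
CPM of the 10 other complement genes with the highest level, in reads summed per plate for mSC-like and nm(R)SC-like cells, on a log axis. Circles are plate 1, squares plate 2, and open squares sums with 0 reads drawn at the level of 3 reads. Csmd1 and C1s1 are higher in nm(R)SC-like cells of both plates, and Cr1l is at 161 and 157 CPM in the 2 classes of plate 1.

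Between the Aldh1a1 subsets 14 of the other complement genes were tested. None passed in edgeR, where 0.143% of all genes did, and 3 had an unadjusted p under 0.05. DESeq2 called 2, both higher in Aldh1a1-high cells, and 252 of all 12624 genes as higher. The median ratio of the 14 was 0.58 and that of all genes tested -0.09. The filter again kept some genes, such as C1rl, through the Aldh1a1-high sums alone, so nothing is read from this median. C2 had 15.5 and 45.0 CPM in Aldh1a1-high against 1.18 and 4.24 CPM in Aldh1a1-low cells, and C1rl 17.1 and 20.4 against 0.112 and 0 CPM. C1s1 had 64.7 against 16.2 CPM in plate 1 and 170 against 174 CPM in plate 2. Csmd1 had 224 and 166 against 143 and 76.7 CPM. Cd59b had 93.1 and 106 against 129 and 119 CPM.

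Genes of signalling routes that act on complement genes elsewhere were read from separate lists. The lists were chosen with earlier results of these data known. Counts of calls and p-values, here and in the next paragraph, are therefore a description. Of all genes tested between the classes, 1.52% were called as lower in mSC-like cells, and the median ratio was -0.23. Of 15 interferon response genes 14 were tested between the classes, and 4 were called, all lower in mSC-like cells: Ifitm3 (104 and 47.4 against 1742 and 1338 CPM), Gbp2 (4.33 and 10.8 against 96.5 and 198 CPM), Bst2 (52.2 and 15.6 against 295 and 201 CPM) and Ifit1 (0.0646 and 0 against 8.49 and 84.6 CPM). Their edgeR adjusted p lay between 0.0030 and 0.043, and the median ratio of the 14 was -2.97. Ifit1 passed the filter on low counts through its nm(R)SC-like sums alone. Of 14 acute phase and cytokine signalling genes 12 were tested and 4 called, all lower in mSC-like cells: Serpina3n, the C/EBP factor gene Cebpd, the cytokine receptor subunit gene Il6st and the copper carrier gene Cp. Serpina3n had 1.3234 and 0.237 CPM against 210 and 732 CPM (edgeR adjusted p = 0.0065), and Cebpd 92.5 and 234 against 1094 and 1459 CPM (edgeR adjusted p = 0.010). The median ratio of the 12 was -1.88. Exons of Cebpd and Cp overlap genes on the other strand, so their calls are uncertain. Of 16 genes that respond to tissue dissociation 1 was called, Hspa1a, lower in mSC-like cells (edgeR adjusted p = 0.032), and the median of the 16 was -0.25. Exons of Hspa1a overlap Gm20481 on the other strand, so this call is also uncertain.

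Between the Aldh1a1 subsets edgeR called none of 15 interferon genes (4 had an unadjusted p under 0.05), with a median ratio of 0.20 beside -0.09 for all genes. Of all genes tested, 0.0792% were called as higher and 0.0634% as lower in Aldh1a1-high cells. Serpina3n was the one gene called of 12 acute phase genes, at 355 and 981 CPM in Aldh1a1-high against 41.4 and 402 CPM in Aldh1a1-low cells (fitted log2 ratio 2.31 ± 0.41 SE, edgeR adjusted p = 0.035). The 16 dissociation genes summed to 10099 and 14238 CPM in Aldh1a1-high and 18447 and 15061 CPM in Aldh1a1-low cells. Of them Dusp1 was called as lower in Aldh1a1-high cells (134 and 22.6 against 560 and 146 CPM, edgeR adjusted p = 0.035), and its exons overlap Ergic1 on the other strand. Without the plate block, with a gate of 200 CPM, without integration of the plates or with all 6 sums in one fit edgeR called 0 genes between the subsets, so both calls were lost there. With 1000 genes per cell both were also lost (edgeR adjusted p = 0.14 for each), and with 2500 genes per cell Dusp1 was lost (edgeR adjusted p = 0.31). The part of the dissociation response in the complement levels was not tested.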

How the data were processed

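The deposited file holds raw counts of reads per gene, made by the authors, for 768 cells in 25700 genes, 283685199 reads in all (1025 to 4076083 a cell). The submitters' processing notes name STAR 2.6.1c, featureCounts and GRCm38.p5. The methods name a human build, while the identifiers are mouse ones. The strand setting and the handling of shared reads are not given in the sources used here. Symbols (25664 found), coordinates and exon lengths come from GENCODE M21 (GRCm38).

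The members and lists were chosen with earlier results of these data known. Cells with 1500 or more genes were scaled to 100000 and clustered in Seurat 5.3.0 (R 4.3.3) on genes of mean 0.1 to 8 with dispersion above 1, after canonical correlation integration of the plates (12 dimensions, resolution 0.5). Clusters were named mSC-like from 11 markers (Egr2, Prx, Drp2, Mag, Cldn19, Pmp22, Gjb1, Mal, Fa2h, Pllp, Ugt8a) or nm(R)SC-like from 9 (Gfap, Scn7a, Ednrb, Cdh2, Sema3e, Emp1, Gap43, Chl1, Itga1). A cluster of low read depth with none of these among its 10 leading genes stayed unnamed. These are not the classes of the study itself, and no doublet caller was run on the sorted wells.

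For the test over all genes, the genes were divided at random into 2 parts, each tested in classes built from the other, which matched the main classes in 98.3% and 97.2% of 646 cells. Complement genes were tested in classes built without them, and the 20 naming markers were left out. Plate sums of each class were fitted in edgeR 4.0.16 by quasi-likelihood with TMM factors, filterByExpr at a minimum of 10 counts and the plate as a block, since the classes of a plate share their mice. P-values were adjusted by Benjamini-Hochberg across the whole table, and genes were called at an adjusted p under 0.05. The Aldh1a1 subsets were fitted in the same way without Aldh1a1. Alternatives were DESeq2 1.42.0 and other filters, gates, scalings and pseudocounts. The fits were tested on simulated data.

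Other complement genes were named if they passed the test, were paralogs of members or were among the 10 with the highest CPM. C1qa, C3ar1, Cfi, Cfd and the genes of the signalling lists were chosen after their values were seen.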

Additional observations from a re-analysis of the deposited data

Results flagged for a closer look

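Cells outside both classes also held reads of the complement genes, above the level of 3 reads. In the 16 unnamed cells of plate 1, led by cell-cycle genes, C3 had 7.48 CPM, C4b 72.2, C1ra 3.63, Serping1 201, Clu 1.92, Cd55 1.07, Cd59a 320 and Cfb 1.92 CPM. In the 12 unnamed cells of plate 2, C4b had 60.7 CPM, from 11 reads, and Cd59a 1291 CPM.

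In the 44 wells of plate 1 with fewer than 1500 genes, which had 105291 reads in all, C3 had 94.975 CPM, C4b 161, C1ra 47.5, Serping1 313, Clu 76.0 and Cd59a 684 CPM, from 5 to 72 reads each. In the 50 such wells of plate 2, C4b had 719.38 CPM, from 744 reads in 3 wells, Serping1 60.9 CPM and Cd59a 163 CPM. These values were compared with nothing.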

How the results depend on the processing

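The directions of the 6 genes lower and of Cd55 higher in mSC-like cells, and of the 7 genes higher in Aldh1a1-high cells, are means of 2 plates, and a single plate gave 6 to 7 and 7 to 8 genes. The mean Cfb ratio between the classes turned from -0.82 to 0.032 without the cell with most reads, to 0.20 at 2500 genes per cell and to 0.62 in plate 1 alone (-2.25 in plate 2). The Cd55 ratio between the subsets was 0.25 in plate 1 alone and -2.93 in plate 2. Genes called between the classes (432) fell to 249 and 182 with 1000 and 2500 genes per cell and to 208 with no replicate block, and rose to 1751 in DESeq2; other complement genes called (2) went to 1 at 2500 genes and 7 in DESeq2. Genes called between the subsets (18) fell to 1 and 11 with 1000 and 2500 genes, and to 0 without integration, without the replicate block, with a gate of 200 CPM or with all 6 sums in one fit, and rose to 31 with relative log expression factors, 47 with a gate of 50 CPM and 462 in DESeq2; DESeq2 also called 2 other complement genes. The plates pair the classes by design, since each plate holds its own mice. In edgeR, 888 genes of the subset comparison had an unadjusted p under 0.05, and 548 without the block. The median share of nm(R)SC-like cells over the 8 genes (28.2%) was 35.9% and 24.996% at 1 and 10 reads, 27.1% at 50 CPM, 26.7% and 31.4% at 1000 and 2500 genes, 24.2% without integration and 27.4 to 29.0% in single plates. The mean number per cell (2.94) was 3.44 at 1 read, 2.73 without integration and 2.84 to 3.05 in single plates. The cause of these changes was not tested.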
